A study of Mus musculus with 12 samples.

Results

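The genes described here were the 9 rows of the count table that carry the symbols Bmp2, Bmp4, Grem1, Nbl1, Bambi, Id1, Id2, Id3 and Id4, of 56748 genes in all. They cover ligands of the bone morphogenetic protein (BMP) pathway, secreted antagonists, a decoy receptor and the Id genes. Expression was measured by bulk RNA sequencing in 10T1/2 cells (C3H10T1/2, an established wild-type mouse mesenchymal progenitor line), in 3 groups of 4 libraries. Cells were starved of serum, held in suspension for 1 h and cultured for 18 h in low serum on gels of 12 kPa stiffness that carried a coat of type I collagen, laid down at 0.05 mg/ml (col1). In the col1-ACLP group the collagen was polymerised with 30 nM recombinant aortic carboxypeptidase-like protein (ACLP), a secreted matrix protein, and in the col1-ACLP+SB group 5 µM SB431542 was also present from seeding. SB431542 blocks the kinase of ALK5, the type I receptor for TGFβ, and of its close relatives, and is known for sparing the BMP type I receptors. No group received SB431542 on col1 alone, so an effect of the inhibitor without ACLP cannot be told apart from one that needs ACLP. All groups are 1 cell line in short-term culture, and the ACLP was a tagged protein made in human cells.

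BMP ligands such as Bmp2 and Bmp4 bind type I and type II serine/threonine kinase receptors, which phosphorylate Smad1, Smad5 and Smad9. These enter the nucleus with Smad4 and bind GC-rich and CAGAC-type motifs near their targets, among which the Id genes are the textbook immediate response. Id proteins lack a DNA-binding region and hold E proteins and other basic helix-loop-helix (bHLH) factors away from DNA. Secreted antagonists of the DAN family, which include Nbl1 (also called DAN) and Grem1 (gremlin), bind the ligands outside the cell, and Bambi is a membrane pseudoreceptor without a kinase. 10T1/2 cells are widely used to follow BMP-driven commitment to bone, cartilage and fat.

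The region ahead of Id1 is known from reporter work as BMP-responsive, and was set beside that of Nbl1, the member with the largest change in expression. The 1500 bases ahead of each gene's start in the table, read from GRCm39, were searched for GGCGCC, which reads the same on both strands, and for CAGAC on either strand (GTCTG when on the other). The motifs do not overlap each other. Id1 and Nbl1 were the only members with both motifs within 100 bases of each other, a distance set after the Id1 sequence had been seen. The stretches that hold these motifs, each with 10 flanking bases, are printed 5′ to 3′ on the strand of the gene, with the motifs in capitals.
Id1 (chr2:152576968-152577179, plus strand, from 1203 to 992 bases ahead of the gene): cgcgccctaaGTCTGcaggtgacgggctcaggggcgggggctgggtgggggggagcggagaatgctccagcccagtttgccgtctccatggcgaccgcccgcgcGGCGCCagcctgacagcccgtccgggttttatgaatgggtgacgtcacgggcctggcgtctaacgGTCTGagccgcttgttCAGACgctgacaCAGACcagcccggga
Nbl1 (chr4:138821114-138821191, minus strand, from 887 to 810 bases ahead of the gene): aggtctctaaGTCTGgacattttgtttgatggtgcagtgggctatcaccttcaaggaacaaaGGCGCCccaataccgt

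The Id1 stretch held 1 GGCGCC and 4 CAGAC-type matches, and the Nbl1 stretch 1 of each. In the same windows of 12695 genes (the tested protein-coding genes and the members), GGCGCC was found in 24.5%, CAGAC in 96.3% and both within 100 bases in 8.9%. Over the whole 1500 bases, Id1, Id4 and Grem1 each held 1 GGCGCC and Nbl1 and Bambi 2, while none was found ahead of Id2, Id3, Bmp2 or Bmp4. The letters describe these windows only. Of the 2 genes with the paired motifs, Nbl1 fell on col1-ACLP, while the interval of Id1 there lay around 0, as given with each gene.

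Depth was similar across groups, with 29246154 to 52201922 counts per library, and counts were scaled with TMM factors to CPM, which sets each count against the size of its library. Levels of different genes were set side by side only per length, as FPKM, from the gene lengths in the table. Differences between groups were tested with edgeR's quasi-likelihood test on the counts of all 12 libraries, with Benjamini-Hochberg adjustment over the 16465 genes that passed the filter on low counts. A gene is said to have risen or fallen where this adjusted p was under 0.05, and a log2 fold change beyond 0.58 in size, the study's own threshold, is named where it was reached. The 3 contrasts share libraries and so are not independent of each other. The library of col1 replicate 2 stood apart, at -86.7 on the leading principal component against -11.1 to -8.97 for the other col1 libraries, and it was the highest col1 library for 5 of the 7 tested members (Id1, Id2, Id3, Grem1 and Bambi). Markers of mesenchymal cells were all present (7 of 7 with a mean over 1 CPM), and their sum ran from 24980 to 25870 CPM on col1, from 34800 to 43040 on col1-ACLP and from 31760 to 37280 on col1-ACLP+SB. Col1a1 and Col1a2, the chains of type I collagen, made up most of that sum (11730 to 24440 and 7195 to 12760 CPM), and another of its markers, Pdgfra, fell against col1 (log2 fold changes -0.76 and -0.60, edgeR adjusted p = 1.98e-10 and 3.32e-08). The highest sum in any library was 9.85 CPM for endothelial markers, 10.04 for immune, 4.04 for epithelial and 0.269 for fat cell markers, with Adgre1, Cd3e and Epcam at 0. Most of the endothelial, immune and epithelial sums came from Tek (3.96 to 9.57 CPM), Cd68 (5.32 to 10.04 CPM) and Cdh1 (1.88 to 3.84 CPM). Of 4 cartilage and bone markers, Acan and Ibsp were at 0 and Bglap reached at most 0.465 CPM. Col2a1, the main collagen of cartilage, made up nearly all of that list's sum, which ran from 807 to 988 CPM on col1, from 2874 to 3878 on col1-ACLP and from 2234 to 2724 on col1-ACLP+SB. The part of the shifts in either sum in the results on the BMP genes was not tested. In bulk RNA, fewer cells with a transcript and less of it per cell cannot be told apart.

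Id1, Nbl1, Id3 and Bmp4 were the abundant members, and the order among them differed between the groups. On col1, Id1 was at 73.5 ± 7.89 FPKM (mean ± SD, n = 4, as for all levels below), Nbl1 at 72.2 ± 5.68 and Id3 at 66.3 ± 8.26, and the libraries of these 3 genes overlapped. Bmp4 followed at 39.0 ± 1.12 FPKM, below every library of the 3, and then Id2 at 10.9 ± 1.10, Bambi at 1.94 ± 0.317 and Grem1 at 0.445 ± 0.0941, each clear of its neighbours. On col1-ACLP, Nbl1 had moved from beside Id1 to below Bmp4, at 36.6 ± 1.53 against 48.4 ± 1.89 FPKM, and the libraries of Id1, Id3, Bmp4 and Nbl1 no longer overlapped. On col1-ACLP+SB, Bmp4 (48.1 ± 5.26 FPKM) and Nbl1 (47.3 ± 1.93) overlapped, while Id1 stayed highest at 80.7 ± 1.47. The lower end of the order (Id2, Bambi, Grem1, Id4, Bmp2) was alike in the 3 groups.

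**Figure D1:**
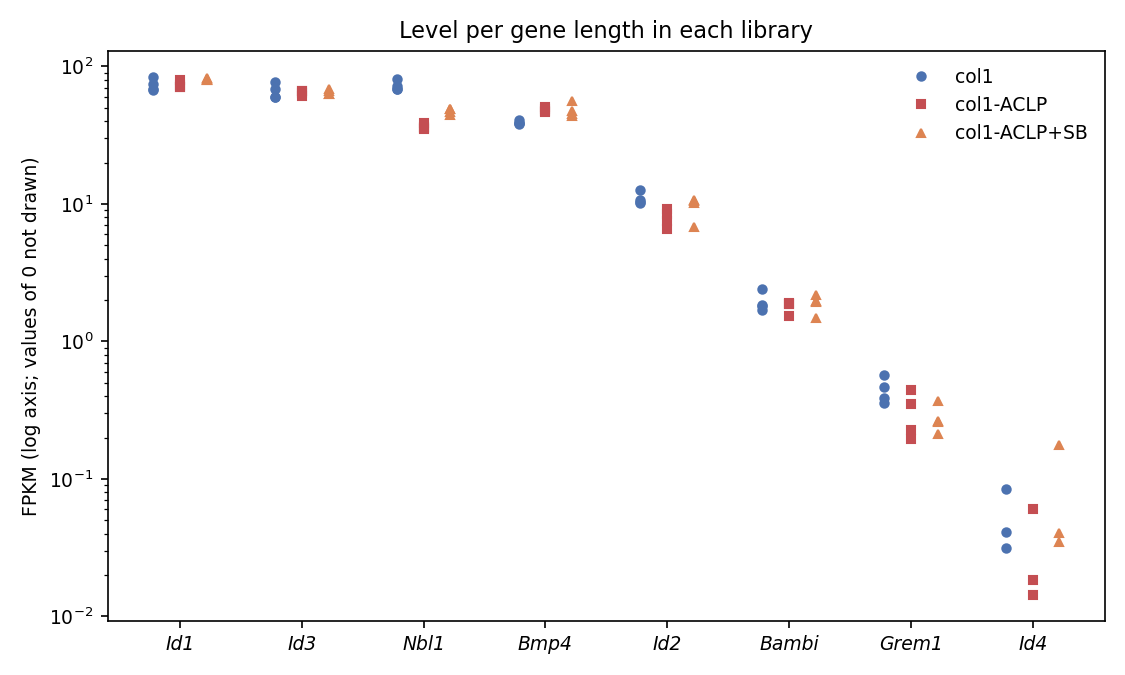
FPKM of each detected member in each library, on a log axis, with circles for col1, squares for col1-ACLP and triangles for col1-ACLP+SB; values of 0 (in Id4) are not drawn and Bmp2, at 0 throughout, has no column. Nbl1 lies beside Id1 and Id3 on col1 and below Bmp4 on col1-ACLP, and Grem1 and Id4 lie under 1 FPKM in every library.

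Among the ligands, Bmp4 was detected in every library and Bmp2 in none. Bmp2 (ENSMUSG00000027358, chromosome 2 from 133394079 to 133404805) had 0 counts in all 12 libraries, which allows up to 0.106 CPM in the shallowest library, taking 3 counts as the limit. Bmp4 (ENSMUSG00000021835, chromosome 14 from 46620977 to 46628126) was at 87.2, 85.1, 87.1 and 91.1 CPM in col1 replicates 1 to 4. It was at 109.6, 105.0, 106.1 and 114.5 CPM on col1-ACLP and at 106.5, 125.1, 98.7 and 101.9 CPM on col1-ACLP+SB. All 8 libraries with ACLP lay above all 4 col1 libraries. Bmp4 rose by 24.1% on col1-ACLP (log2 fold change 0.31, standard error 0.0632, edgeR adjusted p = 7.07e-04) and by 23.2% on col1-ACLP+SB (0.30, standard error 0.0631, edgeR adjusted p = 0.00187), in both cases under the 0.58 threshold. Between the 2 groups with ACLP its libraries overlapped, and the log2 difference was -0.011 (95% interval -0.14 to 0.12, edgeR adjusted p = 0.980). Gm15222 (140 to 302 counts) and Gm15217 (2 to 66 counts) overlap Bmp4 (2870 to 5114 counts) on the other strand, and the strand setting of the counting is not given in the sources used here. The log2 fold changes of Gm15222 were -0.0038 on col1-ACLP and 0.39 with SB431542, both against col1 (edgeR adjusted p = 0.993 and 0.179). Those of Gm15217 were -0.030 and 0.67 (edgeR adjusted p = 0.988 and 0.710).

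Of 15 BMP and related GDF ligands, 3 were tested and 12 were too low, 6 of them with no count in any library. Of the 3, Bmp4 alone passed the test in the contrasts with col1, in which 9.52% and 4.6% of all genes rose, and Bmp6 and Gdf7 did not. Bmp6, at a mean of 0.366 FPKM over all libraries, had a mean below that of Gdf7 on col1 (0.311 ± 0.143 against 0.497 ± 0.399 FPKM). Its mean was above that of Gdf7 in both groups with ACLP. With this spread, no order between Bmp6 and Gdf7 is read from the means. Bmp6 had log2 fold changes of 0.30 without and 0.37 with the inhibitor, both against col1 (standard errors 0.403 and 0.402, edgeR adjusted p = 0.705 and 0.694).

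Nbl1 showed the largest change of any tested member that passed the test, and it fell in both groups with ACLP. Nbl1 (ENSMUSG00000041120, chromosome 4 from 138809595 to 138820304) encodes a secreted ligand-binding protein that gave the DAN family its name. Its levels were 138.2, 145.5, 140.2 and 163.6 CPM in col1 replicates 1 to 4, 73.0, 78.9, 74.3 and 71.7 CPM on col1-ACLP, and 90.7, 99.1, 95.6 and 98.9 CPM on col1-ACLP+SB. No library of any group overlapped with another group, and col1-ACLP+SB lay between the others. Nbl1 fell by 49.3% on col1-ACLP (log2 fold change -0.98, standard error 0.0588, edgeR adjusted p = 2.98e-12). It fell by 34.6% when SB431542 was also present (-0.61, standard error 0.0581, edgeR adjusted p = 2.73e-08), and both falls were beyond 0.58, the second no longer without col1 replicate 4 (-0.56). With SB431542 on col1-ACLP, Nbl1 rose by 28.9% over col1-ACLP (log2 fold change 0.37, standard error 0.0588, edgeR adjusted p = 0.00136), which is 37.4% of the fall on the log2 scale. Without col1 replicate 2 the falls were -0.98 and -0.62. By the size of its change on col1-ACLP, Nbl1 ranked 1065 of the 16465 tested genes. No gene of the table overlaps Nbl1.

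The ratio of Bmp4 to Nbl1, a ligand set against an antagonist, is given as a description, without a test, since it rests on the values above. Per length it was 0.504 to 0.571 in the col1 libraries, 1.20 to 1.44 on col1-ACLP and 0.932 to 1.14 on col1-ACLP+SB. The ranges of the 3 groups did not overlap, which was already so for Nbl1 alone and adds no further result. It is a ratio of transcripts and does not measure free ligand. The ratio also depends on the antagonist chosen. Of the list of antagonists and modulators given below, Fst and Fstl1 rose on col1-ACLP (log2 fold changes 0.48 and 0.40), by more than Bmp4 (0.31). Crim1 fell there (-0.40), as Nbl1 did. With SB431542 the values against col1 were 0.41 for Fst, 0.23 for Fstl1, -0.45 for Crim1 and 0.30 for Bmp4. Fstl1 was more abundant than Nbl1 (means of 473 and 52.0 FPKM).

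Grem1 (ENSMUSG00000074934, chromosome 2 from 113576509 to 113588991), the other DAN-family antagonist among the members, was near the lower end of what was tested. It had 23 to 89 counts per library, and was at 1.49, 2.36, 1.94 and 1.60 CPM in col1 replicates 1 to 4, at 1.47, 0.940, 1.84 and 0.815 CPM on col1-ACLP, and at 0.883, 1.07, 1.10 and 1.52 CPM on col1-ACLP+SB. Libraries overlapped in every contrast. The log2 fold changes were -0.55 on col1-ACLP (standard error 0.364, 95% interval -1.30 to 0.20, edgeR adjusted p = 0.361) and -0.69 on col1-ACLP+SB (standard error 0.364, 95% interval -1.44 to 0.06, edgeR adjusted p = 0.304). These intervals hold both no change and a fall as large as that of Nbl1. Between the groups with ACLP the log2 difference was -0.15 (95% interval -0.91 to 0.61, edgeR adjusted p = 0.934).

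Bambi (ENSMUSG00000024232, chromosome 18 from 3507923 to 3516404), the pseudoreceptor, had similar levels in the 3 groups. It was at 9.32, 12.2, 9.23 and 8.55 CPM in col1 replicates 1 to 4, at 9.50, 9.54, 9.59 and 7.80 CPM on col1-ACLP, and at 10.1, 7.48, 9.90 and 11.1 CPM on col1-ACLP+SB. The groups overlapped in each contrast. Its log2 fold changes were -0.11 on col1-ACLP (95% interval -0.41 to 0.19, edgeR adjusted p = 0.706) and -0.026 on col1-ACLP+SB (95% interval -0.33 to 0.27, edgeR adjusted p = 0.960), and both turned positive without col1 replicate 2 (0.014 and 0.096). Between the groups with ACLP the log2 difference was 0.082 (95% interval -0.22 to 0.38, edgeR adjusted p = 0.900).

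**Figure D2:**
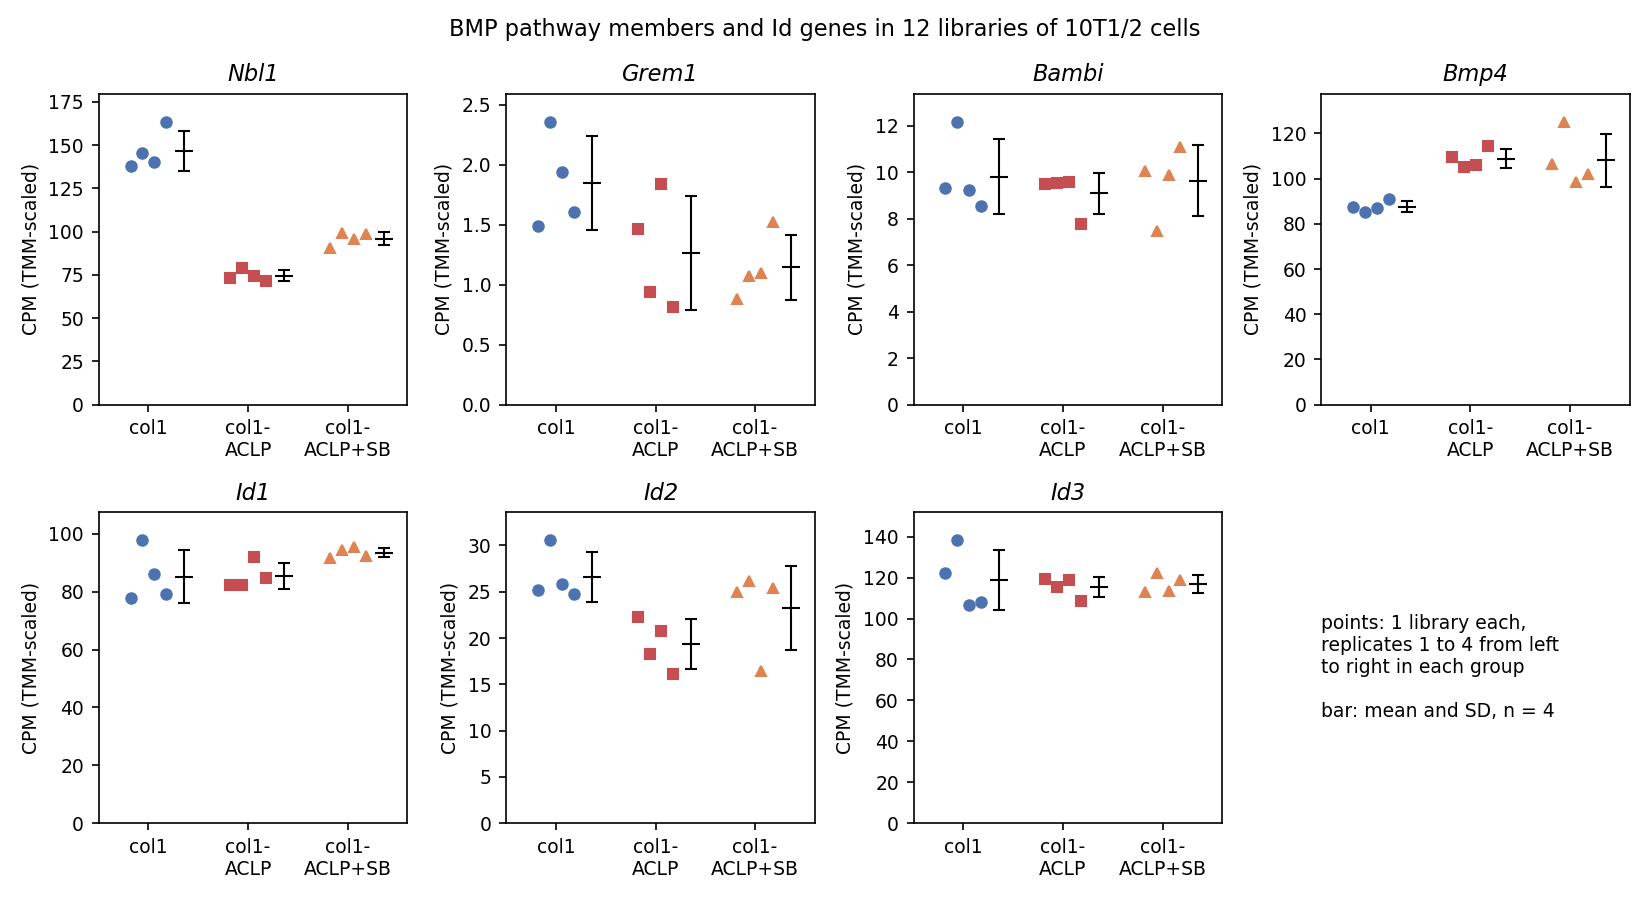
CPM (TMM-scaled, axes from 0) of the 7 tested members in each of the 12 libraries, with the mean and SD of each group of 4 as black bars. Nbl1 separates into 3 levels, Bmp4 is higher in all 8 libraries with ACLP, Id2 is lower in the 4 col1-ACLP libraries than in the 4 col1 libraries, and the other panels overlap between groups.

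The Id genes were not called alike on col1-ACLP, and the difference between them was not tested. On col1-ACLP, Id2 fell while no change of Id1 or Id3 was detected, and Id4 was too low to be tested. Id2 (ENSMUSG00000020644, chromosome 12 from 25143798 to 25147139) was at 25.2, 30.6, 25.9 and 24.8 CPM in col1 replicates 1 to 4 and at 22.2, 18.3, 20.7 and 16.2 CPM on col1-ACLP. On col1-ACLP+SB it was at 24.9, 26.1, 16.5 and 25.4 CPM, with replicate 3 far below the others. All 4 col1-ACLP libraries lay below all 4 col1 libraries, and Id2 fell by 27.1% (log2 fold change -0.46, standard error 0.125, edgeR adjusted p = 0.0108), under the 0.58 threshold. Without col1-ACLP replicate 4 the call was lost (log2 fold change -0.38, edgeR adjusted p = 0.0519), and without col1 replicate 2 it stood close to the threshold (-0.38, edgeR adjusted p = 0.0464). On col1-ACLP+SB the log2 fold change was -0.20 against col1 (95% interval -0.46 to 0.06, edgeR adjusted p = 0.412) and 0.26 against col1-ACLP (95% interval -0.0038 to 0.52, edgeR adjusted p = 0.403). Without col1-ACLP+SB replicate 3 these were -0.061 and 0.39 (edgeR adjusted p = 0.843 and 0.0683). Neither passed with or without it, so a return of Id2 with SB431542 was not shown.

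Id1 (ENSMUSG00000042745, chromosome 2 from 152578171 to 152579330), the gene whose upstream stretch is printed above, was the most abundant member per length in every group. It was at 77.8, 97.8, 86.3 and 79.1 CPM in col1 replicates 1 to 4, at 82.3, 82.3, 92.0 and 84.9 CPM on col1-ACLP, and at 91.8, 94.4, 95.5 and 92.5 CPM on col1-ACLP+SB. The col1-ACLP libraries lay within the range of col1, and their log2 difference from it was 0.0019 (standard error 0.0648, 95% interval -0.13 to 0.14, edgeR adjusted p = 0.990), which leaves out a change past 0.58 in either direction. On col1-ACLP+SB, the libraries lay above 3 of the 4 col1 libraries and below replicate 2 of that group. The log2 fold change was 0.13 (standard error 0.0645, 95% interval 0.0016 to 0.27, edgeR adjusted p = 0.243), and without col1 replicate 2 it was 0.21 with an edgeR adjusted p of 0.0291. Against col1-ACLP it was 0.13 (95% interval -0.00076 to 0.27, edgeR adjusted p = 0.395).

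Id3 (ENSMUSG00000007872, chromosome 4 from 135870808 to 135873066), like Id1 and Id2 a dominant negative partner of E proteins, was at 122.4, 138.2, 106.7 and 107.9 CPM in col1 replicates 1 to 4. It was at 119.1, 115.2, 118.9 and 108.6 CPM on col1-ACLP and at 112.8, 122.2, 113.5 and 118.6 CPM on col1-ACLP+SB. The groups with ACLP lay within the range of col1. The log2 fold changes were -0.041 on col1-ACLP (95% interval -0.18 to 0.10, edgeR adjusted p = 0.762), -0.025 on col1-ACLP+SB (95% interval -0.16 to 0.11, edgeR adjusted p = 0.905) and 0.016 between the groups with ACLP (95% interval -0.12 to 0.15, edgeR adjusted p = 0.968). Without col1 replicate 2 the first and second of these turned positive, at 0.041 and 0.056.

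Id4 (ENSMUSG00000021379, chromosome 13 from 48414704 to 48419502), the member of the family best known from the nervous system and mammary gland, was at or near the detection limit. Its counts were 0, 6, 4 and 14 in col1 replicates 1 to 4, 0, 2, 7 and 2 on col1-ACLP and 24, 4, 8 and 0 on col1-ACLP+SB. Each group held a library at 0, and Id4 was left out of the test by the filter on low counts. Its highest level, in col1-ACLP+SB replicate 1, was 0.684 CPM.

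**Figure D3:**
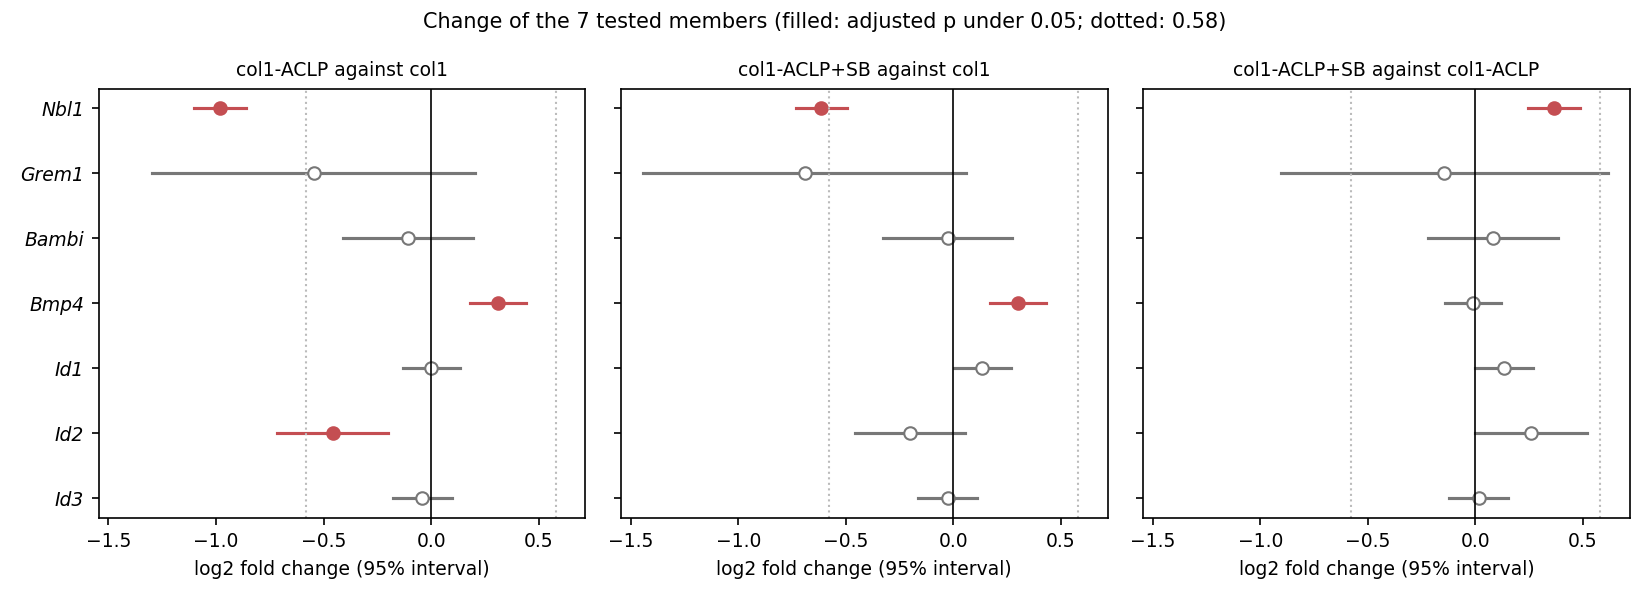
Log2 fold change (x axis) of the 7 tested members in the 3 contrasts, with 95% intervals from the edgeR fit; filled points passed an adjusted p under 0.05 and dotted lines mark a log2 fold change of 0.58 in either direction. Nbl1 passed in all 3 contrasts, Bmp4 in both contrasts with col1 and Id2 on col1-ACLP against col1, and the interval of Grem1 is the widest.

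Counted together, 7 of the 9 members could be tested. On col1-ACLP against col1, 1 of the 7 rose (Bmp4) and 2 fell (Nbl1 and Id2), where 9.52% of all 16465 tested genes rose and 8.41% fell. Beyond 0.58, 1 of the 7 passed (Nbl1), against 4.97% of all tested genes in either direction. On col1-ACLP+SB against col1, 1 rose (Bmp4; 4.6% of all genes) and 1 fell (Nbl1; 4.54%), and Nbl1 passed 0.58 (2.28%), though not without col1 replicate 4. On col1-ACLP+SB against col1-ACLP, 1 rose (Nbl1, 0.571% of all genes) and 0 fell (0.905%), and 0 passed 0.58 (0.128%). At an unadjusted p under 0.05, and by DESeq2, 0 fell as well. With 7 genes these counts are small, and they are read as a description. The median log2 fold change of the tested members was -0.11, -0.026 and 0.082 in the 3 contrasts, against -0.0099, 0.0046 and 0.0049 over all tested genes.

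The rest of the pathway was followed in 75 further genes, of which 47 were tested and 15 had no count in any library. On col1-ACLP against col1, 10 of the 47 rose and 6 fell, beside 9.52% and 8.41% of all tested genes, and 4 and 1 of them were beyond 0.58, beside 4.97% in either direction. Of the 4 higher ones, Smad7 ranged from 0.54 to 0.71 over the 20 alternatives and so did not always pass 0.58, and the call on Hey1 was lost in 10. On col1-ACLP+SB against col1, 5 rose and 4 fell (4.6% and 4.54% of all genes), 2 and 0 of them beyond 0.58 (2.28%). Between the groups with ACLP, 0 rose and 1 fell, beside 0.571% and 0.905% of all genes. At an unadjusted p under 0.05 the counts were 3 and 7, and by DESeq2 1 and 3. Shares of all genes at these settings are not given here, so those counts cannot be set against them. The median log2 fold changes were 0.017, 0.021 and -0.034. The counts of the lists that follow are small, and each is read beside these same shares of all genes, as a description.

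Among 20 secreted antagonists and modulators, Nbl1 included, 11 were tested, and on col1-ACLP 2 rose and 2 fell (9.52% and 8.41% of all genes). Fstl1, a follistatin-like glycoprotein and the most abundant of the list at a mean of 473 FPKM, rose from 1998 ± 44.0 to 2629 ± 41.9 CPM on col1-ACLP (log2 fold change 0.40, edgeR adjusted p = 6.13e-09). It was at 2342 ± 105 CPM on col1-ACLP+SB, above col1 (0.23, edgeR adjusted p = 6.14e-05) and below col1-ACLP (-0.17, edgeR adjusted p = 0.0156). The last of these calls was lost when only these groups were fitted (adjusted p = 0.0544 by the same edgeR test). Fst (follistatin, which binds activins and some BMPs) rose on col1-ACLP by 0.48, and with SB431542 by 0.41, on the log2 scale (edgeR adjusted p = 7.06e-07 and 1.11e-05). Crim1, a membrane protein with chordin-like repeats, was lower by a log2 fold change of -0.40 and -0.45 (edgeR adjusted p = 3.71e-06 and 1.11e-06). Nbl1 and Crim1 thus fell in both groups with ACLP while Fst and Fstl1 rose in both. Fez2 overlaps Crim1 on the other strand, with a log2 fold change of 0.10 on col1-ACLP (edgeR adjusted p = 0.473).

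Of 12 receptors and co-receptors, 10 were tested. Rgmb, a repulsive guidance molecule that acts as a BMP co-receptor, fell from 200.3 ± 12.9 CPM on col1 to 120.1 ± 5.00 on col1-ACLP, and to 138.8 ± 11.4 with SB431542 (log2 fold changes -0.74 and -0.53, edgeR adjusted p = 6.42e-10 and 4.18e-07). Its relative Rgma, the most abundant of the list at a mean of 48.4 FPKM, was lower on col1-ACLP (-0.25, edgeR adjusted p = 8.63e-04), and the table lists A730056A06Rik and Gm44758 over the same region. The type I receptor Acvr1 and the guidance receptor Neo1, which binds repulsive guidance molecules, rose on col1-ACLP (log2 fold changes 0.31 and 0.27, edgeR adjusted p = 0.00228 and 2.43e-04). On col1-ACLP+SB the log2 fold changes of Rgma, Acvr1 and Neo1 were -0.11, 0.097 and 0.11 (edgeR adjusted p = 0.212, 0.503 and 0.177). The type I receptor Bmpr1a (mean 33.0 FPKM) had log2 fold changes of 0.15 and -0.0049 (edgeR adjusted p = 0.118 and 0.982).

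Of the 4 Smads that carry the BMP signal, 0 passed the edgeR test in any contrast, and 0 of 4 is near what the shares of all genes would give. Smad9 was lower at an unadjusted p under 0.05 on col1-ACLP+SB against col1. Smad4 and Smad5, the most abundant of them at means of 32.1 and 18.8 FPKM, had log2 fold changes of 0.093 and 0.023 on col1-ACLP (edgeR adjusted p = 0.305 and 0.872). Of the inhibitory Smads, Smad7, which blocks receptors of both TGFβ and BMP, rose from 9.24 ± 1.39 CPM on col1 to 14.0 ± 0.616 on col1-ACLP, and to 12.5 ± 0.897 with SB431542 (log2 fold changes 0.60 and 0.44, edgeR adjusted p = 7.01e-04 and 0.0211). Smad6, which acts mainly on BMP receptors, rose on col1-ACLP (0.36, edgeR adjusted p = 0.0118). The call on Smad6 was lost without col1-ACLP replicate 4 (edgeR adjusted p = 0.0599), and that on Smad7 on col1-ACLP+SB was lost in 5 of 20 alternatives, among them those without col1 replicate 2 or 3 or without col1-ACLP+SB replicate 2 or 3 (edgeR adjusted p at most 0.0636). The ubiquitin ligases Smurf1 and Smurf2, which mark Smads and receptors for breakdown, fell on col1-ACLP+SB against col1 (log2 fold changes -0.16 and -0.25, edgeR adjusted p = 0.0498 and 0.00136). Smurf1 stood at the threshold and was lost in 14 of 20 alternatives, while Smurf2 was kept in all 20. Tob1, an antiproliferative protein that binds BMP Smads and the most abundant of this list at a mean of 46.5 FPKM, had log2 fold changes of -0.00066 and -0.076 (edgeR adjusted p = 0.996 and 0.508).

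Of 18 genes known to respond to BMP, the Id genes, Bambi, Smad6 and Smad7 included, 15 were tested, and on col1-ACLP 4 rose and 3 fell (9.52% and 8.41% of all genes). Besides those already given, Dlx2 and Hey1 rose and Runx2 and Atoh8 fell there. Hey1, a bHLH repressor, was near the detection limit at 6 to 42 counts in the libraries of col1 and col1-ACLP, and its log2 fold change of 1.79 (standard error 0.613, edgeR adjusted p = 0.0438) came with overlapping groups. Dlx2, a homeobox gene, had a log2 fold change of 0.41, Runx2, the master factor of bone, -0.15 and Atoh8, a bHLH factor, -0.33 (edgeR adjusted p = 0.0448, 0.0494 and 5.28e-04). The calls on Hey1 and Dlx2 were each lost in 10 of 20 alternatives and that on Runx2 in 13, most of them with 1 library left out, whereas that on Atoh8 was kept in all 20. On col1-ACLP+SB against col1, Smad7 was the only one of the 15 to rise and 0 fell. At an unadjusted p under 0.05 the counts were 4 and 2, without a share of all genes to set beside them. The log2 fold changes of Hey1 and Dlx2 in this contrast were 1.84 and 0.31 (edgeR adjusted p = 0.0605 and 0.211), and for both genes all 4 libraries lay above those of col1. Those of Atoh8 and Runx2 were -0.19 and -0.11 (edgeR adjusted p = 0.066 and 0.264). All 4 libraries lay below those of col1 for Atoh8, and the groups overlapped for Runx2.

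E proteins and mesenchymal bHLH factors, listed as partners or counterparts of Id proteins, were 13 genes, of which 8 were tested. The E protein Tcf3 was the most abundant in each group, at a mean of 56.0 FPKM over all libraries, and Tcf12, another E protein, at 14.9 FPKM, was below Twist1 and Tcf4 on col1 and below Bhlhe40 in both groups with ACLP. Tcf3 and Tcf12 had log2 fold changes of 0.087 and 0.11 on col1-ACLP (edgeR adjusted p = 0.270 and 0.114). Scx (scleraxis, the marker of tendon cells) rose from 4.65 ± 0.643 CPM on col1 to 22.5 ± 3.74 on col1-ACLP, with 16.9 ± 2.71 when SB431542 was present. The log2 fold changes of Scx were 2.27 and 1.86 (edgeR adjusted p = 7.14e-12 and 6.81e-10). Scx lies within Bop1 on the other strand, which had 1662 to 3055 counts and a log2 fold change of 0.44 on col1-ACLP (edgeR adjusted p = 4.46e-05). Bhlhe40 rose by 0.73 and 0.74 on the log2 scale (edgeR adjusted p = 3.08e-05 and 4.71e-05), and Twist1 was lower on col1-ACLP (-0.43, edgeR adjusted p = 0.00118). On col1-ACLP+SB the log2 fold change of Twist1 was -0.24 (edgeR adjusted p = 0.103), with its libraries all below those of col1.

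**Figure D4:**
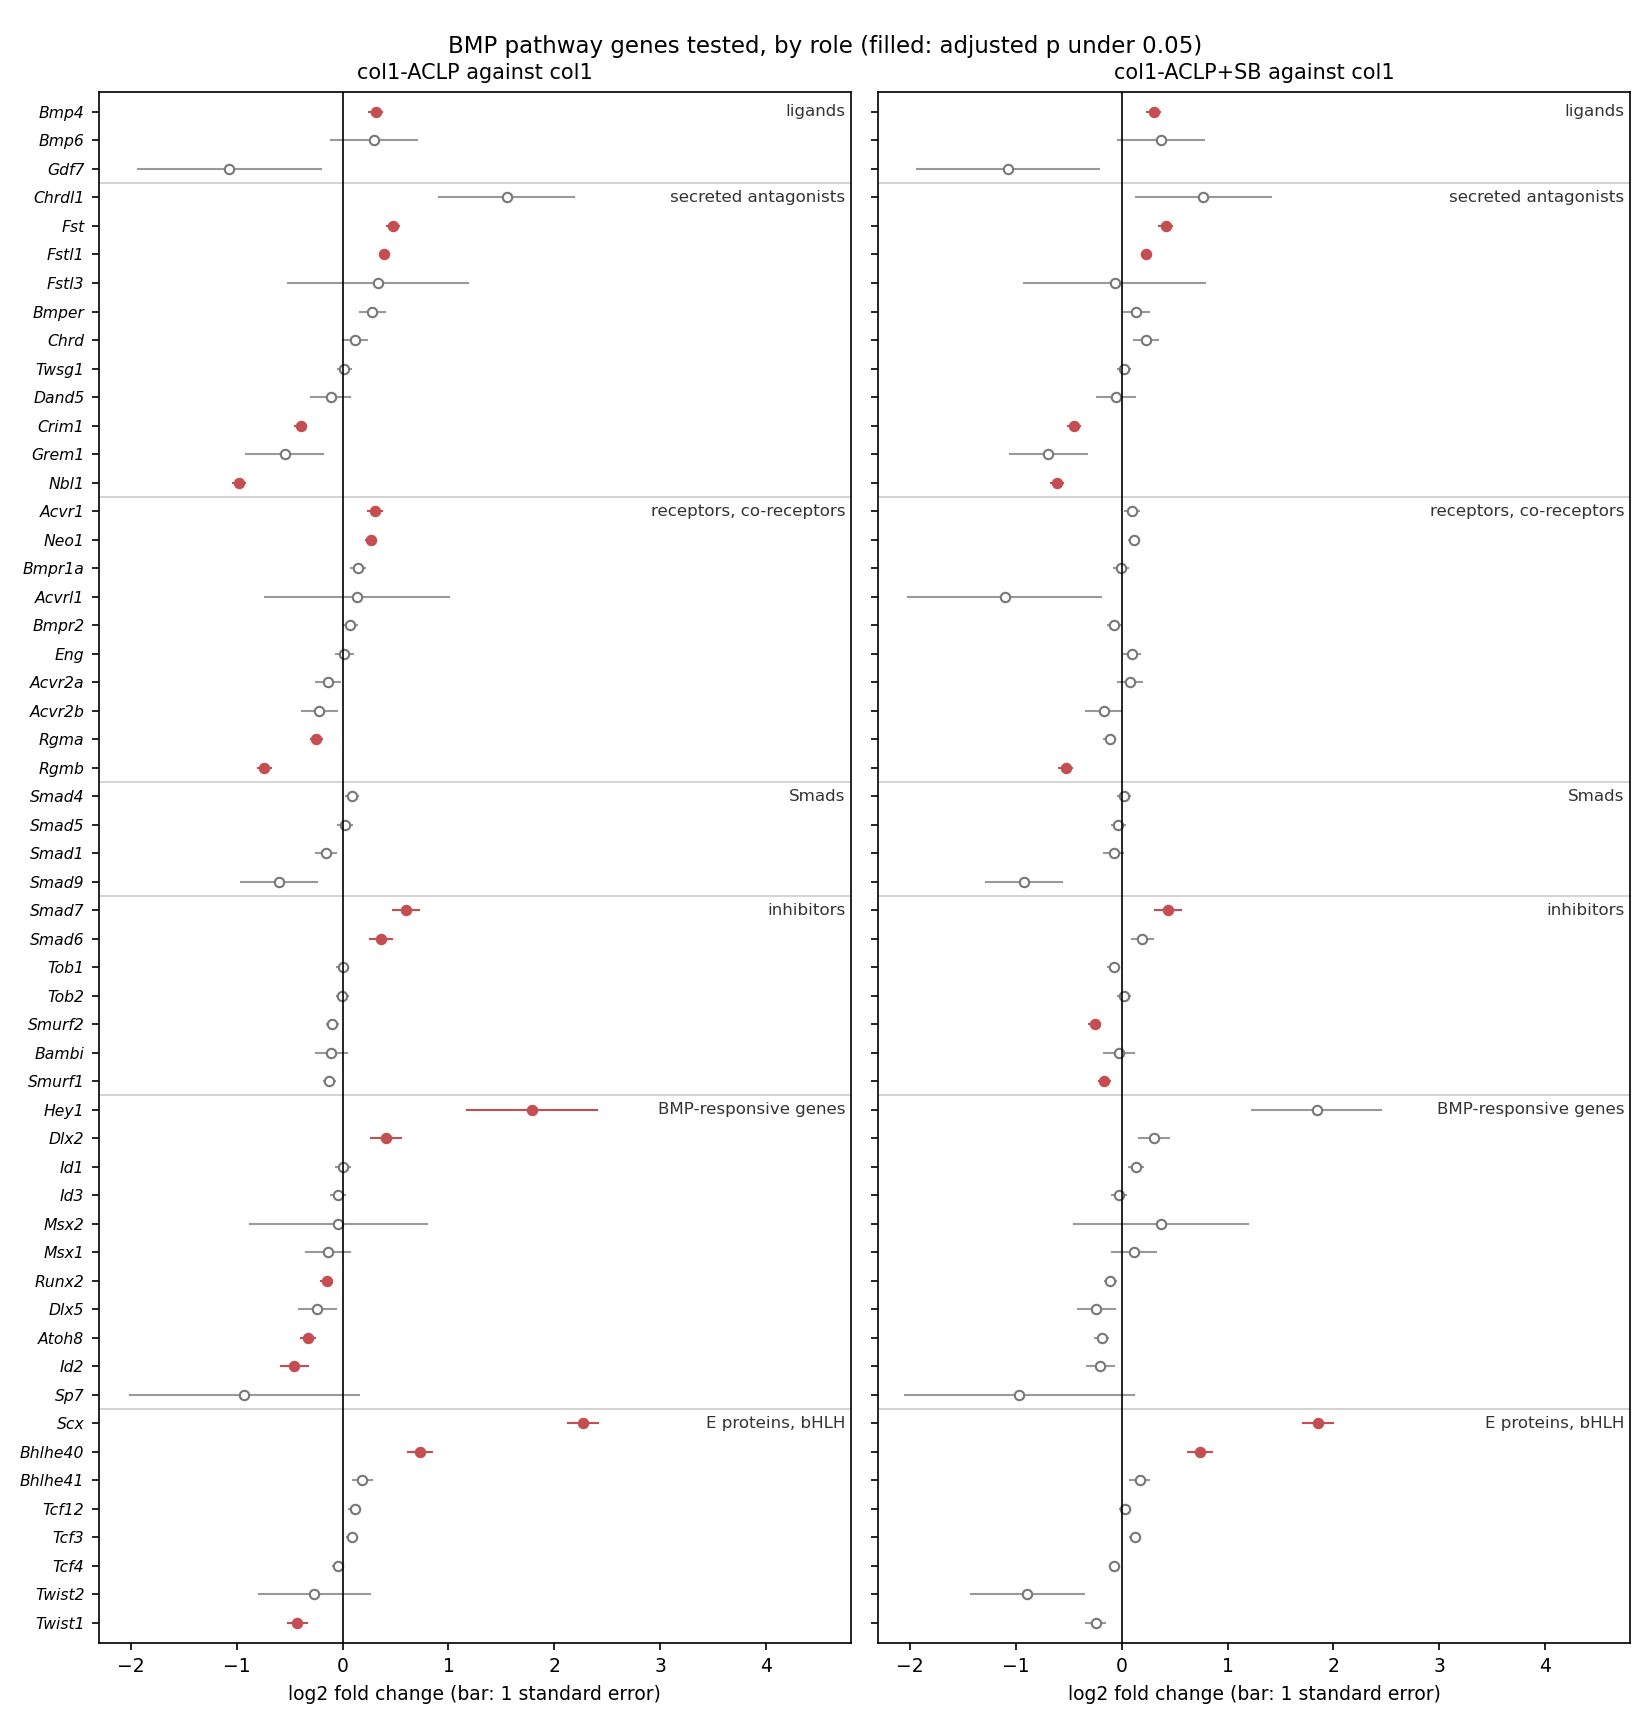
Log2 fold change (x axis, bars of 1 standard error) of the tested BMP pathway genes, members included, in the contrasts with col1 (col1-ACLP on the left, col1-ACLP+SB on the right), grouped by role and ordered by the first contrast; filled red points passed an adjusted p under 0.05, and a gene on several lists is drawn once. On the left, passing genes lie on both sides of 0 among antagonists, receptors, BMP-responsive genes and E proteins with bHLH factors, on the right among antagonists and inhibitors, and the 4 Smads are drawn open in both.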

How the data were processed

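The 12 libraries fall into 3 groups of 4. Reads of poly(A) RNA, sequenced from both ends, were aligned by the authors with HISAT2, and raw counts per gene were deposited together with gene lengths. The paper's methods give GRCm39, while the submitters' processing notes list mm10. The coordinates in the table were compared with GENCODE vM39 on GRCm39, and 12685 of 12698 protein-coding genes overlapped their own gene on the same strand, while 6425 (50.6%) shared a start or an end with it. The windows ahead of genes follow the starts in the table, which can differ from those in GENCODE. The counting tool, its strand setting and its treatment of ambiguous reads are not given in the sources used here.

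The test on counts used edgeR 4.0.16 in R 4.3.3 (filterByExpr, TMM, glmQLFit and glmQLFTest, group as the only term, Benjamini-Hochberg adjustment), in place of the DESeq2 of the study. Intervals are 95% intervals of the fit. FPKM was computed as CPM per kilobase of gene length. The paper calls the libraries biological replicates, and p-values measure the spread between them. Replicates differed by more than sampling noise (7.14 to 18.3 for chi-square over its degrees of freedom), and each was kept as a sample. Limits of detection cover counting error only.

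The members and lists were chosen with earlier results of these data known. All members were named in each contrast, and from each list the genes past both thresholds and the 2 most abundant. Other list genes were named after their values had been seen because they passed the test. The procedure was tested on simulated data. Alternatives were edgeR's RLE size factors, library size alone, no filter, a mean of at least 10 counts, only the groups compared, a replicate block, DESeq2 1.42.0, limma-voom 3.58.1, the study's size threshold, Spearman in place of Pearson correlation, and each library left out in turn. FPKM as another scale of the levels is given beside CPM. Protein sequences were not used here.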

Additional observations from a re-analysis of the deposited data

Results flagged for a closer look

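Each group of 4 libraries was searched, for each tested member, for a highest or lowest library standing apart from the others (Dixon's criterion at 95%). Of 21 such groups 2 were singled out, and chance alone singles out about 1 in 20. Id2 in col1-ACLP+SB replicate 3 was at 16.5 CPM, against 24.9 to 26.1 CPM in the other 3 libraries of that group. This library was also the deepest, with 52201922 counts. Without it, Id2 on col1-ACLP+SB had a log2 fold change of -0.061 against col1 and 0.39 against col1-ACLP (edgeR adjusted p = 0.843 and 0.0683). Bambi in col1-ACLP replicate 4 was at 7.80 CPM, against 9.50 to 9.59 CPM in the other 3. That library was the shallowest, with 29246154 counts, and was also the lowest of its group for Nbl1, Grem1, Id2 and Id3 and the highest for Bmp4. The part of depth in either value was not tested.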

How the results depend on the processing

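The calls on Nbl1 in all 3 contrasts and on Bmp4 in both contrasts with col1 kept their direction and stayed under 0.05 in all 20 alternatives. The log2 fold change of Nbl1 on col1-ACLP ranged from -1.03 to -0.92 and that of Bmp4 from 0.26 to 0.33. With the study's size threshold added, 0 members were higher and 1 lower on col1-ACLP, 0 were higher on col1-ACLP+SB against col1, and 0 were higher between the groups with ACLP; for the other pathway genes the counts became 4 higher and 1 lower, 2 and 0, and 0 lower. Leaving out 1 library at a time gave 1 to 2 members lower on col1-ACLP (Id2 was lost without col1-ACLP replicate 4) and 1 to 2 higher on col1-ACLP+SB against col1 (Id1 was gained without col1 replicate 2). Between the groups with ACLP, the other pathway genes numbered 1 higher with library size alone, 1 higher and 2 lower with no filter, 0 lower with only these groups fitted, and 1 higher and 3 lower with DESeq2; the cause was not tested. Log2 fold changes that had not passed the test changed sign in places. With library size alone, Id1 on col1-ACLP was at -0.049 and Bmp4 between the groups with ACLP at 0.016. With libraries left out in turn, Id1 on col1-ACLP ran from -0.038 to 0.076, Id3 from -0.087 to 0.041 on col1-ACLP, from -0.072 to 0.056 on col1-ACLP+SB and from -0.013 to 0.031 between the groups with ACLP, Bambi from -0.17 to 0.014 and from -0.098 to 0.096 against col1, and, between the groups with ACLP, Grem1 from -0.31 to 0.086 and Bmp4 from -0.089 to 0.030. Libraries with the same replicate number did not deviate together (r from -0.037 to 0.036 in 12 pairs, and 2 of 12 libraries correlated best with their own number). The numbers are used here as names of the libraries, and the check cannot show whether any of them share a batch. With a replicate block the members gave 1 higher and 2 lower on col1-ACLP, as without it, and the log2 fold change of Nbl1 was -0.98. Grem1, with 23 to 89 counts per library, had the widest intervals of the tested members; how much of that is counting error was not tested.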

Other observations

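For each tested member, the genes whose log2 CPM followed it most closely over the 12 libraries were listed by Pearson's r, as a description; the libraries share groups and the correlations carry no test. Nbl1 was followed by H2-T23 (r = 0.990), a nonclassical MHC class I gene, Col18a1 (0.989), the collagen that carries endostatin, and Tamalin (0.987), a scaffold protein. As genes chosen for their likeness to Nbl1 over these libraries, they share its order of groups by choice, and their fold changes against col1, without and with SB431542, are given as a size only (log2 -1.33 and -0.85 for H2-T23, -1.27 and -0.78 for Col18a1). By rank correlation the leading gene for Nbl1 was Ebf1 (rho = 0.993). Bmp4 was followed by Dazap1 (0.979), which encodes an RNA-binding protein, Psmc4 (0.951) and Tedc1 (0.946), and Dazap1 led by rank as well (0.965). Id2 was followed by Srsf5 (0.958), a splicing factor, Stac3 (0.905) and Ctrl (0.902), Id1 by Ccsap (0.890), Fam76b (0.875) and Alg5 (0.873), and Id3 by Rps24-ps3 (0.901), Morn4 (0.896) and Rinl (0.869). Grem1 was followed by Rufy3 (0.936), Gm13056 (0.916) and Il33 (0.893), and Bambi by 2610044O15Rik8 (0.904), Fam118b (0.900) and Osgepl1 (0.895). The leading gene differed by rank for these 5 members and Nbl1, with rho of 0.937 for Id2, 0.888 for Id1, 0.916 for Id3, 0.958 for Grem1 and 0.930 for Bambi. No Id gene was among those listed for another Id gene.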
